A study of Mus musculus with 6 samples.

Results

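The genes described here fell from a clear level in mouse bone marrow cells carrying the leukaemia fusion MLL-AF9 to a trace or to nothing in cells carrying the same fusion with the E531R substitution. A gene was taken if its mean normalised read count was at least 50 over the 3 WT libraries and under 10 over the 3 E531R libraries. Of 47593 genes, 57 met these levels, and the rule leaves out 10 of them by symbol (Tceal8, Alox5, Pcdh7, H2afy2, Aldh1l1, Gprasp2, Armcx2, Prdx4, Clec2f and H2-Ab1). The remaining 47 genes are called member genes below. Since the WT and E531R values themselves chose the members, their difference between the groups is given as a description with no test.

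RNA was sequenced from c-Kit positive mouse femur marrow cells that had been infected with an MSCVneo retrovirus for MLL-AF9, selected with G418 and replated serially in methylcellulose with cytokines. The 3 WT libraries carry MLL-AF9 with the unaltered AF9 part and the 3 E531R libraries carry MLL-AF9 with E531R in the AF9 part, a change that the series title ties to loss of binding between BCoR and AF9. The cells of all 6 libraries therefore express the fusion from a retrovirus. No library of marrow cells without the fusion is part of the comparison. The labels do not say whether the replicates came from separate cultures or animals, so spread and p-values cover only the difference between these libraries.

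MLL-AF9 joins the chromatin-binding part of MLL to AF9, whose end recruits both elongation complexes and the corepressor BCOR. BCOR is a core part of a variant Polycomb complex that marks CpG-rich promoters, and it takes part in keeping genes of other lineages low. Genes that blood cells do not use are commonly kept silent by Polycomb complexes or by methylation of CpG sites in their promoters.

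The libraries held 14161139, 19690545 and 30597351 reads in WT replicates 1 to 3 and 33459668, 23755210 and 24237823 reads in E531R replicates 1 to 3. One read was worth 0.695 to 1.60 units of the normalised read count, and a count of 0 in a group allows up to 3 reads over that group. WT replicate 3 was unlike replicates 1 and 2. The Y-linked gene Ddx3y was at 1416 and 1630 in WT replicates 1 and 2 and at 324 in WT replicate 3. It was between 1601 and 1686 in the E531R libraries. The Y-linked Kdm5d and Uty were lowest in WT replicate 3 too, and neither passed the test. Eif2s3y, also Y-linked, was at 731, 846 and 389 in WT and at 2138, 2203 and 2035 in E531R. It was called higher in E531R (limma adjusted p = 0.00403). Without WT replicate 3, 2974 genes instead of 1238 were called lower in E531R over all genes. The list after leaving out symbols then held 51 genes instead of 47, and 45 of the 51 are among the 47.

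Every member gene was lower in E531R by construction. All 47 were among the 12991 genes tested across the table (limma, two-sided, Benjamini-Hochberg threshold of 0.05, mean of at least 10) and all 47 fell below the threshold in the lower direction, against 9.53% of all tested genes and 9.93% of the tested genes with a WT mean of at least 50. The groups did not overlap in 47 of 47, against 22.8% of all tested genes that were lower without overlap. Nothing is read from these counts, since the same values chose the members. Their log2 fold changes, on the log2(value + 1) scale, had a median of -4.73 and ran from -8.32 to -2.28, beside a median of 0.01 over all tested genes. In the authors' deposited table the sign-turned log2 fold change of the members ran from -5.64 to -1.81 with a median of -3.50.

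**Figure D1:**
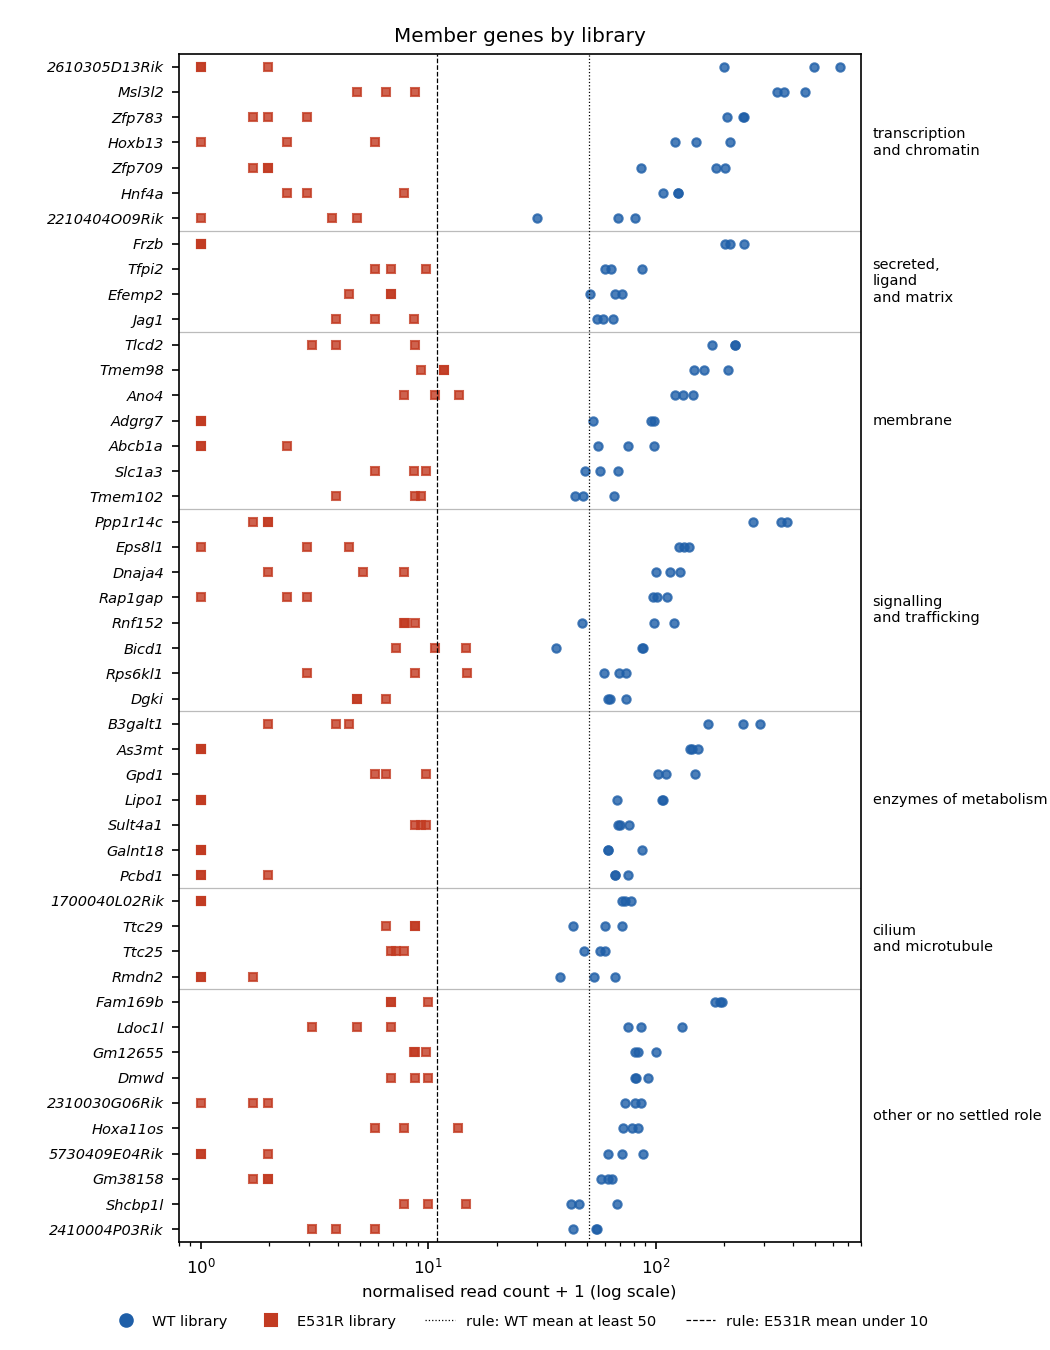
Normalised read count plus 1 (log scale, x axis) of each of the 47 member genes (y axis, grouped by role), with circles for the 3 WT libraries and squares for the 3 E531R libraries and vertical lines at the means that the rule uses. The circles and squares of a gene never overlap, and the WT circles of 2610305D13Rik, 2210404O09Rik, Rnf152 and Bicd1 are among the most spread, each with WT replicate 3 low.

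How far the members fell differed. In the 3 E531R libraries together, 6 members had no read, 9 had 1 to 3 reads, 6 had 4 to 10 and 26 had over 10, with 34 reads as the highest sum. Only the first 15 were thus at or under the floor of 3 reads, and the rest kept a low count. The WT means ran from 50.1 to 447 with a median of 81.2, with 18 members at 100 or more and 7 at 200 or more. That is low for the cells studied: over the 10519 genes with a WT mean of at least 50 the median was 958.812. The rule itself favours a low WT level, since a gene with a high WT mean needs a larger fall to come under 10. Per kilobase of exon, the members' WT level had a median of 26.8, from 2.54 for Bicd1 to 181 for Msl3l2, and that of all genes with a WT mean of at least 50 was 207. In bulk RNA, fewer cells that use a gene and less RNA per cell cannot be told apart, so a low level may be a few cells with a high one.

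**Figure D2:**
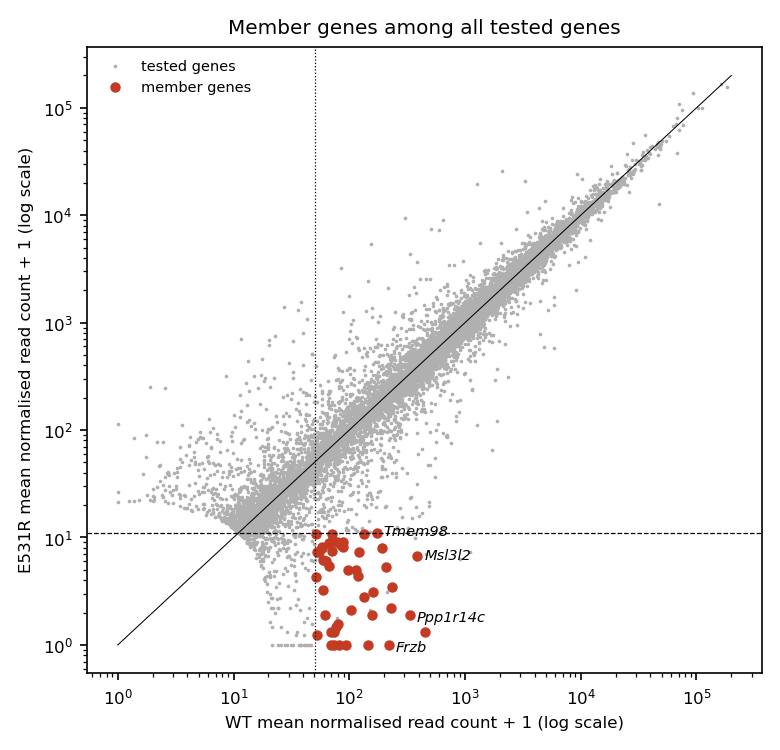
WT mean (x axis) against E531R mean (y axis) of all tested genes, both as normalised read count plus 1 on log scales, with the 47 member genes in red. The members lie between 50.1 and 447 on the WT scale, at the low end of the genes in use, and below 9.92 or at that value on the E531R scale. The rule favours this low end, since a high WT mean needs a larger fall.

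Genes that meet the turned-round rule were about as frequent. A mean of at least 50 in E531R and under 10 in WT was met by 46 of 10495 genes (0.438%), and the rule in the stated direction by 57 of 10519 (0.542%). The level matters for the share: of the 3416 genes with a WT mean from 50 to 500, 55 met it (1.61%), and 541 (15.8%) were called lower.

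Frzb, a secreted antagonist of Wnt ligands, was among the members without any read in E531R. Its values were 212, 201 and 245 in the WT libraries (219 ± 22.8, SD, n = 3) and 0 in each E531R library. With 619 reads against 0, it was at least 211-fold lower by the 95% counting limit of the read ratio. The sequences before the start are printed for 4 other members without an E531R read. In these 4 most of the bases before the RefSeq start lie outside the annotated gene. None of the 4 has a CpG-rich promoter window by the definition given below. The starts are as annotated and were not measured here, so a stretch may not be the promoter in use. The printed sequences are the up to 250 bases before the start in RefSeq (GRCm38.p6) that lie outside the gene as GENCODE annotates it. They run 5′ to 3′ on the strand of the gene, with each CpG in capitals. They belong to 1700040L02Rik (chr10:68541897-68542125, minus strand, 8 CpG), As3mt (chr19:46707208-46707457, plus strand, 4 CpG), Adgrg7 (chr16:56795859-56796108, minus strand, 1 CpG) and Lipo1 (chr19:33787460-33787702, minus strand, no CpG).
1700040L02Rik: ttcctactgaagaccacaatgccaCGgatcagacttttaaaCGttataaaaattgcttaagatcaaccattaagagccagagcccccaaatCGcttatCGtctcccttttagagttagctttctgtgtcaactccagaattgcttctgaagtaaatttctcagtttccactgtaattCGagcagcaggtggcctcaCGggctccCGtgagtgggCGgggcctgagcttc
As3mt: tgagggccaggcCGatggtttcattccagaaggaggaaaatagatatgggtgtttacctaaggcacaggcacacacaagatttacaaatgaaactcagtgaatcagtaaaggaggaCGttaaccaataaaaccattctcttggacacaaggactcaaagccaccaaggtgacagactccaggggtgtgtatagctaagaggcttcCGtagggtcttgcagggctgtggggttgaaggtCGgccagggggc
Adgrg7: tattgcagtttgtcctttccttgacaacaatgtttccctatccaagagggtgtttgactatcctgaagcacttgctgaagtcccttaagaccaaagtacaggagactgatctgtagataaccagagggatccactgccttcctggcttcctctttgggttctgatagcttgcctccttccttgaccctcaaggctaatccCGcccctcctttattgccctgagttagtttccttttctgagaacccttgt
Lipo1: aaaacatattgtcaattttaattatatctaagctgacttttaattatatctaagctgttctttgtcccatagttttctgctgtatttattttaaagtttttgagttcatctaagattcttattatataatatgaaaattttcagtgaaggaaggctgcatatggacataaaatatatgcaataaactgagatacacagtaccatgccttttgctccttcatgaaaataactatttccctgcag

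The 4 members that code for secreted or extracellular signals and matrix were the Wnt antagonist Frzb (gene at chr2:80411970-80447625 in GRCm38, minus strand), the Notch ligand Jag1, the protease inhibitor Tfpi2 and the elastic fibre protein Efemp2. Jag1 read 57.5, 64.3 and 54.3 in WT and 7.64, 4.87 and 2.92 in E531R, which is 11.4-fold lower in the mean. Tfpi2 was at 59.1, 86.1 and 63.0 against 4.86, 8.76 and 5.84. These 3 kept between 17 and 22 reads in E531R, so Frzb alone of this group was at 0. Efemp2, also named fibulin-4, had a WT mean of 62.0 ± 10.2 and an E531R mean of 5.05 ± 1.37 (SD, n = 3 each).

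Among the 7 membrane proteins, Adgrg7, an adhesion G protein-coupled receptor, was at 94.2, 97.6 and 52.0 in WT and at 0 in all 3 E531R libraries, at least 71.2-fold lower by the same 95% limit. Abcb1a, a P-glycoprotein that pumps drugs out of cells, had 75.0, 97.6 and 55.1 in WT and 1.39, 0 and 0 in E531R. With 202 reads against 2 its ratio was 128, with a 95% counting interval from 34.8 to 1060. In both genes WT replicate 3 was the lowest WT library, and it still stood far above every E531R library. The TLC domain protein Tlcd2 was the strongest of the group in WT (176, 223 and 222 against 2.08, 7.79 and 2.92). Tmem98, a membrane protein that restrains the myelin factor MYRF, had 163, 147 and 206 against 8.34, 10.7 and 10.7, so 2 of its E531R values passed 10 and its mean of 9.92 was the highest of all members. The anoctamin Ano4 (132 ± 12.1 against 9.73 ± 2.92), the glutamate transporter Slc1a3 (57.1 ± 9.54 against 7.09 ± 2.01) and Tmem102 (51.6 ± 11.4 against 6.35 ± 2.98) kept 23 to 34 reads.

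Signalling and trafficking genes made up 8 members. Ppp1r14c, an inhibitor of protein phosphatase 1, read 268, 356 and 376 in WT and 0.695, 0.973 and 0.973 in E531R, that is 1 read in each E531R library. Its read ratio was 402 (95% counting interval 137 to 1954). Rap1gap, which turns off the small GTPase RAP1, had 101, 96.4 and 111 against 1.39, 1.95 and 0, a 92.3-fold difference between the means. Eps8l1, a relative of the actin regulator EPS8, was 73.4-fold lower (132, 126 and 139 against 3.47, 0 and 1.95). In these 3 genes no E531R library was above 3.47 and no WT library below 96.4. The other 5 fell less far: the co-chaperone Dnaja4 28.6-fold, the diacylglycerol kinase Dgki 14.7-fold, the lysosomal ubiquitin ligase Rnf152 12.2-fold, the kinase-like Rps6kl1 8.44-fold and the dynein adaptor Bicd1 7.05-fold. Rnf152 (97.4, 119 and 46.5 in WT) and Bicd1 (86.2, 87.3 and 35.4 in WT) were low in WT replicate 3. Rps6kl1 was uneven in E531R, at 13.9, 1.95 and 7.79, and its highest E531R value was still below its lowest WT value of 58.3.

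Of the 7 enzymes, 3 had no read in E531R. As3mt, which methylates arsenite (chr19:46707458-46741099, plus strand), had 144, 140 and 153 in WT (145 ± 6.53, SD, n = 3), and it was at least 138-fold lower in E531R by the 95% limit. Lipo1, of the acid lipase family, had 105, 107 and 66.9, and the N-acetylgalactosaminyl-transferase Galnt18 had 60.7, 60.8 and 85.8. As3mt was the steadiest of these in WT, while Lipo1 was low and Galnt18 high in WT replicate 3. Pcbd1, a pterin dehydratase, had 65.4, 65.4 and 74.8 in WT and 1 read in E531R. Its read ratio was 244, with a counting interval from 43.2 to 9673. The galactosyltransferase B3galt1 read 287, 241 and 169 against 3.47, 0.973 and 2.92. Gpd1, the cytosolic glycerol-3-phosphate dehydrogenase, was 18.8-fold lower (120 ± 25.4 against 6.40 ± 2.08) and the sulfotransferase Sult4a1 8.50-fold lower (70.5 ± 4.49 against 8.30 ± 0.489).

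The 7 genes of transcription and chromatin held the highest WT level and, among members with a read in E531R, the largest ratio of reads. 2610305D13Rik, a zinc finger gene named Zfp979 in the reference, read 496, 645 and 198 in WT and 0, 0 and 0.973 in E531R. It had 1125 reads against 1, a ratio of 1420 with a 95% counting interval from 254 to 56144. WT replicate 3 was at 0.35 of the mean of the other WT libraries, and the groups were still far apart. Msl3l2, a relative of the chromodomain gene Msl3, had 367, 342 and 451 against 5.56, 3.89 and 7.79, 67.3-fold lower. The other zinc finger genes were Zfp783, annotated as a transcribed pseudogene (230 ± 21.0 against 1.20 ± 0.657), Zfp709 (201, 183 and 85.0 against 0.695, 0.973 and 0.973) and 2210404O09Rik, named Zfp995 in the reference (67.0, 80.4 and 29.1 against 2.78, 0 and 3.89).

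Hoxb13 and Hnf4a are tissue-identity factors that marrow cells do not normally rely on. Hoxb13, the homeobox gene at the far end of the Hoxb cluster (chr11:96194316-96197447, plus strand), is used in tail, prostate and distal gut. It read 121, 149 and 212 in WT and 1.39, 4.87 and 0 in E531R, 77.1-fold lower. Hnf4a, a nuclear receptor of liver, kidney and gut (chr2:163506808-163572910, plus strand), read 125, 107 and 124 in WT and 1.39, 1.95 and 6.81 in E531R, 35.0-fold lower. Hoxb13 was highest in WT replicate 3, whereas Hnf4a was even across WT.

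A cilium or microtubule role fits 4 members. The calcium-binding coiled-coil gene 1700040L02Rik, named Cabcoco1 in the reference, had 76.6, 72.3 and 70.1 in WT and no read in E531R, at least 67.8-fold lower by the 95% limit. The microtubule-associated Rmdn2 had 52.7, 65.4 and 37.0 against 0.695, 0 and 0. Ttc25, which docks outer dynein arms to cilia, and Ttc29, a protein of sperm flagella, kept 22 and 24 reads and were 8.60-fold and 8.13-fold lower.

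The last 10 members have no settled role or fit none of the groups above. Fam169b had the highest WT level of these (182, 192 and 195 against 9.03, 5.84 and 5.84). 2310030G06Rik, with 79.8, 72.3 and 85.0 against 0.695, 0 and 0.973, 5730409E04Rik, with 70.2, 60.8 and 87.4 against 0, 0.973 and 0, and the processed pseudogene Gm38158, with 60.7, 63.1 and 56.7 against 0.695, 0.973 and 0.973, had 1 to 3 reads in E531R. The retrotransposon-derived Ldoc1l (Rtl6) was 24.5-fold lower and the WD repeat gene Dmwd 11.2-fold lower. Of the noncoding RNAs, the antisense RNA Hoxa11os read 83.0, 78.1 and 70.9 against 12.5, 4.87 and 6.81, and Gm12655 had 87.5 ± 10.9 against 8.06 ± 0.608. Shcbp1l (51.0 ± 13.6 against 9.82 ± 3.47) had the smallest fold of all members, 5.19.

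The rule's limits fell among genes of much the same values. Just inside the WT limit were 2410004P03Rik (50.1 in WT, 3.29 in E531R) and Shcbp1l, and just outside were 2900026A02Rik (49.8 and 9.64) and Nol3 (49.6 and 9.50). Just inside the E531R limit were Tmem98 and Bicd1 (69.6 and 9.87), and just outside were BC026585 (321 and 10.1) and Slc12a2 (149 and 10.2).

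The WT libraries differed from each other in the members about as much as in genes with a WT mean from 50 to 500. The sets were not matched for level within that range. The coefficient of variation over the 3 WT libraries had a median of 14.8% in the members, from 3.62% to 50.9%, and of 14.8% over the 3416 genes with a WT mean from 50 to 500. WT replicate 3 lay more than 1.5-fold below the mean of the other WT libraries in 10 members (21.3%, beside 18.5% of the 3416 genes) and more than 1.5-fold above it in 2 (4.26%, beside 2.90%). The low ones were 2610305D13Rik, 2210404O09Rik, Bicd1, Rnf152, Zfp709, Adgrg7, Rmdn2, Lipo1, Abcb1a and B3galt1, and the high ones Ldoc1l and Hoxb13. All 3 zinc finger genes 2610305D13Rik, 2210404O09Rik and Zfp709 are thus among the low ones, and Zfp783 is not.

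**Figure D3:**
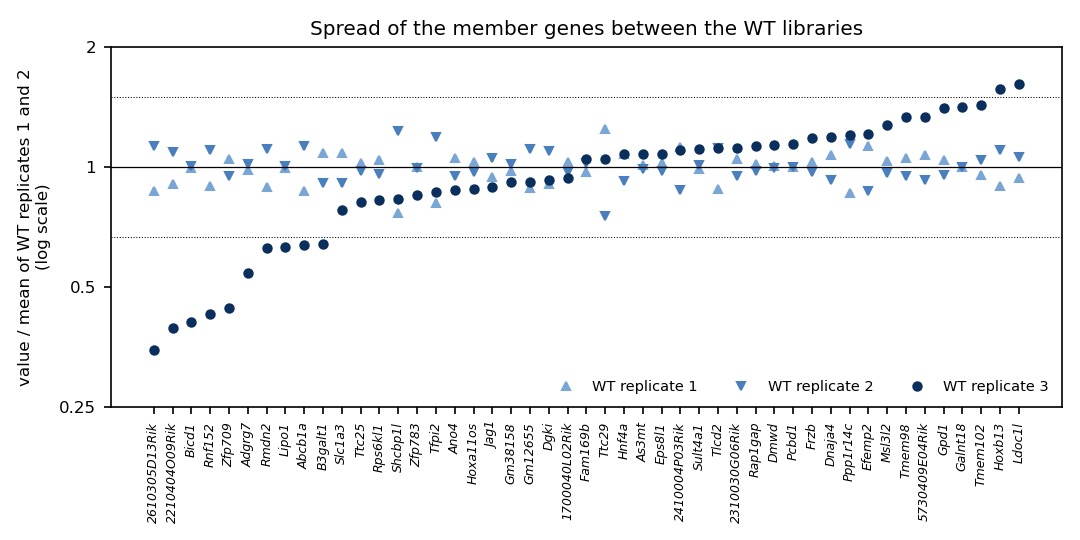
Value in each WT library divided by the mean of WT replicates 1 and 2 (y axis, log scale) for the 47 member genes (x axis), with dotted lines at 1.5-fold below and above. WT replicate 3 ranges from 0.35 in 2610305D13Rik to 1.61 in Ldoc1l, and it lies below the lower line in 10 members and above the upper line in 2.

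The members were spread over the genome. They lay on 15 chromosomes, with 5 each on chromosomes 6, 10 and 11 (10.6% each, beside 4.79%, 4.80% and 8.45% of all genes with a WT mean of at least 50). None was on X or Y, but 4 of the 10 genes that the rule leaves out by symbol are on X (Armcx2, Gprasp2, Tceal8 and Prdx4). The closest pair, Sult4a1 and Ldoc1l on chromosome 15, had starts 452 kb apart, so no members were within 200 kb of each other. Protein-coding genes were 43 of the 47 (91.5%, beside 88.8% of the genes with a WT mean from 50 to 500). With noncoding genes included, the exonic length had a median of 3537 bases over the 47 members, beside 3848 over the genes of that range.

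Calls for neighbouring genes are from the fit over all genes. Neighbours that themselves meet the level rule were left out, while the shares over all tested genes include such genes. A fall in the mean from at least 50 to under 10 therefore cannot appear among the neighbours. Of 120 tested genes that start within 100 kb of a member's start, 20 were called lower in E531R (16.7%) and 7 higher (5.83%), beside 9.53% and 10.4% of all tested genes, and their median log2 fold change was -0.06. Among the 31 members with a tested neighbour, 12 had a lower one and 6 a higher one, and 16 had none that was called. No member had only lower neighbours. Within 50 kb the lower share was 15 of 60 (25%), from 50 to 100 kb it was 5 of 60 (8.33%), and within 250 kb it was 14.3% of 273. Neighbours of Hoxa11os and Tmem102 made up 9 of the 20. Without these 2 members, left out after the values were seen because they had the most lower neighbours, the share was 11 of 94 (11.7%), which had to be smaller.

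Around Hoxa11os, 4 of the 15 tested neighbours were lower, among them the homeobox genes Hoxa11 and Hoxa10, and 1 was higher. Hoxa11, which the antisense RNA overlaps, went from 1895 ± 123 to 120 ± 10.7 (log2 fold change -3.98, limma adjusted p = 2.29e-06, n = 3 each). Hoxa10 went from 5234 ± 271 to 1316 ± 51.5 (-1.99, limma adjusted p = 7.79e-06). No source used here says whether the authors' counting used strand, and so reads of Hoxa11 and of its antisense RNA cannot be told apart.

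By adjusted p, the leading neighbours elsewhere were on chromosome 11 beside Tmem102. Nlgn2, a neuronal adhesion protein of inhibitory synapses, went from 640 ± 71.6 to 11.4 ± 1.49 (-5.70, limma adjusted p = 2.69e-06), and its E531R mean of 11.4 kept it outside the rule. The phospholipid scramblase gene Plscr3 went from 1893 ± 217 to 372 ± 26.0 (-2.34, limma adjusted p = 1.80e-05). Of 11 tested neighbours of Tmem102, 5 were lower. Near Hoxb13, the RNA gene Gm27605 fell from 285 ± 25.4 to 14.5 ± 5.39 (-4.28, limma adjusted p = 9.48e-05), and near Gm12655 the lincRNA Gm12648 fell from 276 ± 59.0 to 18.0 ± 2.67 (-3.85, limma adjusted p = 3.50e-05). Zfp882, a zinc finger gene beside Zfp709 on chromosome 8 picked out for its fold change, read 38.3, 59.7 and 29.1 in WT and 0 in each E531R library.

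**Figure D4:**
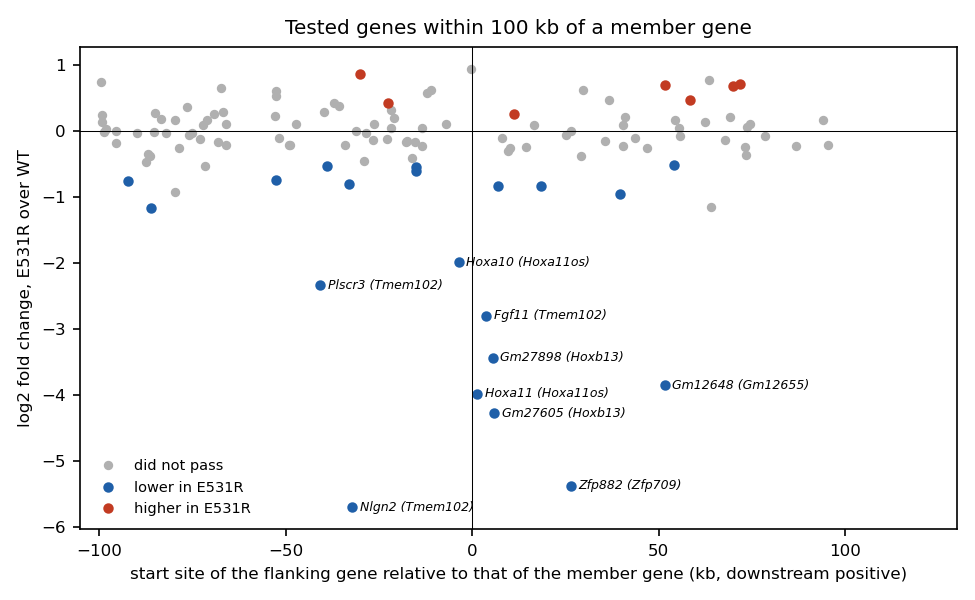
Log2 fold change, E531R over WT (y axis), of the 120 tested genes that start within 100 kb of a member gene and do not meet the level rule, by distance of their start from that of the member in kb (x axis, downstream positive). Blue points were called lower, red higher, and grey points did not pass. Of the 20 lower points 15 lie within 50 kb, on both sides, and the lowest is Nlgn2 at -5.70.

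In the fit of genes with a mean of at least 10, relatives of the members by name were called lower about as often as all tested genes. The same symbol stem as a member was found in 764 tested genes that do not meet the level rule. Of these, 74 were lower (9.69%) and 54 higher (7.07%), beside 9.53% and 10.4% of all tested genes, with a median log2 fold change of 0.04. Most of these belong to a few large stems: of 305 tested Zfp genes, 25 were lower (8.20%). In stems with at most 20 tested genes, a limit chosen after the values were seen, 15 of 55 were lower (27.3%) and 5 higher (9.09%), and these include the Hoxa genes above. By the smallest adjusted p, the leading relatives were Hoxa11, Hoxa10 and, among others, Ttc21a, a cilium transport gene that went the other way, from 121 to 560 (2.20, limma adjusted p = 1.32e-05). Tmem154 (344 to 1051) and Rnf144b (129 to 482) were higher too, while the zinc finger gene Zfp286 went from 43.5 to no read.

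Close paralogues, singled out after their values were seen, gave mixed results. Jag2, the sister ligand of Jag1, fell from 63.0 ± 2.18 to 15.1 ± 2.11 (-2.00, limma adjusted p = 0.000337). Abcb1b, the other mouse P-glycoprotein, fell from 232 ± 12.9 to 143 ± 7.99 (-0.70, limma adjusted p = 0.00303), far less than Abcb1a. Pcbd2 was at 411 in WT and 414 in E531R and did not pass. That none of these 3 relatives fell as far as its member gene follows largely from the selection. Members were chosen for their fall, and relatives that meet the level rule were left out.

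Promoters were compared on base composition, which the rule did not use. RefSeq windows from 250 bases before to 50 after the start were matched for 40 of the 47 members. With CpG-rich defined as GC of at least 50% and a CpG observed over expected of at least 0.6, 15 of 40 members (37.5%) had such a promoter, beside 63.2% of 2546 genes with a WT mean from 50 to 500, 74.0% of 8251 genes with a WT mean of at least 50, and 44.0% of all 19220 windows. The median number of CpG per window was 11 in the members, beside 19, 22 and 12 in those sets. The member windows ranged from no CpG in Lipo1 and Fam169b to 41 in Hoxa11os. The sequences of Lipo1 and 1700040L02Rik printed above show part of this range. All starts are as annotated, and none was measured here. In 11 of the 40 windows at least 50 of the bases before the RefSeq start lie inside the gene as GENCODE annotates it. Frzb (229 bases) and Hoxa11os (250) are among them. The Abcb1a window (chr5:8566841-8567140) lies far upstream of the annotated gene, which begins at 8660077. In Abcb1a, Tlcd2, Slc1a3, B3galt1, Adgrg7, Dmwd, Efemp2 and Tfpi2, the stretch after the RefSeq start was whole in no GENCODE transcript of the gene. Any of these windows may miss the start in use. The share of members with CpG-rich promoters was closer to that of all genes than to that of genes with a WT mean from 50 to 500. The members had a median WT mean of 81.2, and the sets were not matched for level within that range. These shares are descriptions without a test.

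**Figure D5:**
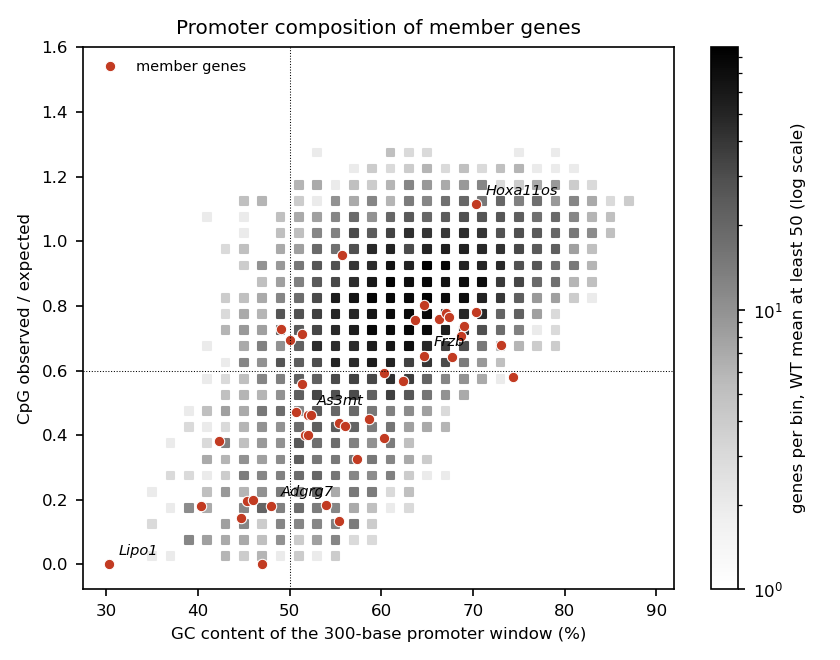
GC content of the 300-base promoter window in percent (x axis) against CpG observed over expected (y axis) for the 40 member genes with a RefSeq window (red) over binned counts of genes with a WT mean of at least 50 (grey, darker for more genes), with dotted lines at 50% and 0.6. Of the 40 members, 15 lie in the CpG-rich upper right and the rest lie below or left of the lines.

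Short motifs were searched on both strands of the same windows, with no factor inferred from them. The TATA box letters TATAAA were in 6 of 40 member windows (15.0%), beside 6.99% of genes with a WT mean from 50 to 500 and 12.9% of all windows. The Hox-type letters TGATTTAT and the CRE letters TGACGTCA were in none, and they are rare elsewhere (0.353% and 3.46% of the genes of that level). CCAAT was in 16 member windows, beside 41.4% of the genes of that level and 38.3% of all windows. The E-box letters CACGTG were in 4, beside 9.58% and 7.81%, and the GC box GGGCGG was in 22 (55.0%), beside 62.1% and 44.8%. A window could hold several motifs, and no match says only that these letters are not in it.

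Some member counts may hold reads of related or overlapping genes. Transcripts were compared in the same orientation only, so a stretch shared with a gene on the opposite strand, such as Hoxa11 for Hoxa11os, is not counted. In that orientation 27 members shared no stretch of 50 bases with another gene's transcript and 7 shared over 10% of theirs: Lipo1 (44.4%), 2610305D13Rik (26.7%, most with Zfp600), Gm38158 (17.9%), Abcb1a (17.6%, with Abcb1b), 2210404O09Rik (13.4%), Hoxa11os (13.1%) and Tlcd2 (10.4%). How the authors' counting treated reads that fit both genes is not known here. Some partners kept a level in E531R where the member had almost none: Abcb1b was at 143 and Abcb1a at 0.463, and Zfp947 was at 65.5 and 2210404O09Rik at 2.22. Other partners were lower in E531R, at low levels: Zfp600 went from 12.7 in WT to 0, and Hmga2, the partner of Gm38158, from 3.56 to 0.556. Gm8978, the partner of Lipo1, was at 0 in both groups. Gm27492 and Mir22hg, the partners of Hoxa11os and Tlcd2, overlap their member on the same strand. Gm27492 was at 0 in both groups, and Mir22hg was at 45.3 in WT and 77.1 in E531R. Of all members, 6 overlap a protein-coding gene, and 5 of those partners did not pass the test, among them Tbc1d32, which overlaps Msl3l2 and was at 148 in WT and 111 in E531R.

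Markers of cell types were read in the same libraries. The progenitor gene Kit, which was used to select the cells, was at 3587 in WT and 3335 in E531R and did not pass. Of 7 neutrophil genes, 7 were higher in E531R, with a summed level of 6420 to 8693 in WT and 67706 to 75235 in E531R. Of 8 macrophage genes 5 were tested and all 5 were higher (sum of 1065 to 1208 against 7191 to 8076), while C1qa, C1qb and C1qc were at or near 0. In the stroma and endothelium list, 3 of the 4 tested genes of 10 were lower (sum of 6254 to 7193 against 1528 to 1630): the adhesion genes Pecam1 and Vcam1, which myeloid cells also use, and Pdgfrb. Cxcl12 was at 0 in every library, and Col1a2, Col3a1, Cdh5 and Kdr were under 1 in both groups, while Col1a1 was at 6.22 in WT and 17.4 in E531R and did not pass. Of the erythroid list Hba-a1 and Hbb-bs, and of the T and NK list Cd3e, Cd4, Cd8a and Ncr1, were at 0 throughout. The part of the neutrophil and macrophage genes in the fall of the members was not tested.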

How the data were processed

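Per the labels' protocols, RNA was sequenced in 6 libraries, 3 with WT and 3 with E531R MLL-AF9. The tools DESeq2, featureCounts, HISAT2, SAMtools, cutadapt and FastQC and the mouse build GRCm38 are listed per the submitters' processing notes. No source used here gives their versions, the annotation or the use of strand. The deposited values are a signal, gene read counts divided by the authors' size factor per library, and 100% came out as whole reads within 0.001. The deposited table also gives the authors' log2 fold change, test score and p-value from DESeq2, whose fold change is WT over E531R and is sign-turned here.

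Size factors hide a shift shared by most genes. The test was limma 3.58.1 (R 4.3.3) with the trend option on log2(value + 1), pseudocount 1, mean of at least 10 over 6 libraries, two-sided, Benjamini-Hochberg threshold 0.05, and no covariate. Log2 fold changes understate low genes, and folds are ratios of means or, with 0 to 3 reads, ratios of reads with 95% intervals that cover counting error only, as the floor of 3 reads does. Gene positions are from GENCODE M21, matched by symbol for 45755 rows and 47 of 47 members. The members, roles and lists were chosen with earlier results of these data known. All members are named as a rule, with the genes nearest outside each limit and up to 6 neighbours and 6 relatives of smallest adjusted p. Marker lists covered myeloid progenitors, macrophages, neutrophils, dendritic, B, T and NK, mast and basophil, eosinophil, erythroid, megakaryocyte, stromal and endothelial cells. A further list held 6 sex-linked genes, of which 4 were tested, 0 lower and 1 higher. Of the lists not described elsewhere, the numbers lower and higher were 1 and 4 of 12 tested for progenitors, 1 and 2 of 3 for dendritic, 0 and 0 of 2 for B, 1 and 0 of 2 for T and NK, 2 and 0 of 3 for mast and basophil, 0 and 2 of 2 for eosinophil, 0 and 0 of 2 for erythroid, and 0 and 2 of 3 for megakaryocyte genes. Alternatives were edgeR 4.0.16 and DESeq2 1.42.0 on recovered reads, other scalings, pseudocounts, filters and distances, a replicate block, and leaving out each library. The fit was tested on simulated data with 50 genes changed at each fold. It recovered 28% at 1.5-fold, 72% at 2-fold, 96% at 4-fold and 100% at 8-fold, and 12 of its 160 calls were false.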

Additional observations from a re-analysis of the deposited data

How the results depend on the processing

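The members were chosen by the same values, so their own direction and calls under the alternatives say nothing about stability. The number of members was 27 with an E531R limit of 5, 106 with 20, 126 with a WT limit of 25 and 18 with 100, and 46 to 51 when each library was left out. Leaving out each library gave 764 to 2974 genes lower (5.88% to 22.9%) and 804 to 3169 higher (6.19% to 24.4%) over all tested genes, 11.6% to 30.8% of neighbours lower and 4.13% to 16.7% higher, and 5.89% to 24.8% of relatives lower. The highest of these were without WT replicate 3, where 22.9% of all tested genes were lower. With no filter on low values, 10.6% of neighbours were lower and 3.38% higher, with 5.35% of all genes lower. With a minimum mean of 50, 6.40% of relatives were lower, beside 9.08% of all tested genes. Chosen after seeing the data, stems of at most 20 genes gave 27.3%. The cause of these shifts was not tested. Same-numbered libraries correlated at 0.0017, 0.192 and 0.238 in their deviations from the group means. Not every library correlated best with its own number. With 3 libraries per group this cannot settle whether the numbers pair the samples, and the labels do not say. With a replicate block 1062 genes were lower and 1179 higher, 16.7% of neighbours were lower and 5.83% higher, and 8.51% of relatives were lower. Depth limits the folds of the 15 members with at most 3 reads in E531R, whose counting intervals are wide or open.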
